A study of Mus musculus with 9 samples.

Results

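The 9 genes described here encode the transcription factors of the CREB family (Creb1, Crem and Atf1), their CRTC coactivators (Crtc1, Crtc2 and Crtc3), the acetyltransferase coactivators CBP and p300 (Crebbp and Ep300) and the coactivator PGC-1alpha (Ppargc1a). They were chosen by gene name from the 48230 genes kept of the deposited expression table, and all 9 were found, each in 1 row with a usable estimate in every library. The RNA was that of BeCon cells, a mouse tumor line used in this ovarian cancer series. A group of 4 libraries was made from tumor cells in the ascites of B6 mice (an inbred strain) that carried BeCon tumors and received vehicle, and another 4 from such mice that received YKL-05-099, which inhibits the salt-inducible kinases (SIKs). Both mouse groups were sorted for viable cells that lacked CD45, the common leukocyte antigen, and carried MHC class I. The third group is 1 library of cultured BeCon cells, with no replicate and no sort described. The sources used here state no dose, schedule, sex or age, no engineered allele, and not how many mice went into each library, so the p-values describe only the spread from library to library. The labels number vehicle and treated libraries under different prefixes, and whatever a prefix stands for cannot be told apart from the treatment.

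CREB family factors bind the cAMP response element in gene promoters. Protein kinase A phosphorylates them when cAMP rises, and the phosphorylated factors recruit CBP or p300, which acetylate histones. CRTC proteins bind CREB through a separate surface. SIKs phosphorylate CRTCs, which are then held in the cytoplasm by 14-3-3 proteins, and loss of SIK activity lets CRTCs enter the nucleus. The Crem gene is itself a CREB target and makes activators as well as the short repressor ICER from an internal promoter, while Ppargc1a, a driver of mitochondrial and gluconeogenic genes, is a classical CREB and CRTC target in liver. Phosphorylation and location of these proteins were not measured here.

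The cAMP response element has the full sequence TGACGTCA, which reads the same on both strands, and a core of 5 letters, TGACG on one strand or CGTCA on the other. RefSeq promoter windows on GRCm38.p6, reaching from 250 bases before the annotated start to 50 after it, were matched by symbol for 7 of the 9 genes. Crem and Crtc2 had no window, so their promoters were not searched. None of these 7 windows held the full element, which 1.79% of 32851 such windows held. The core was found in the windows of Ppargc1a and Atf1, and in 20.81% of all windows. These stretches are shown with the matched letters in capitals, on the strand of the gene, beside the full element in the windows of Dusp1 and Btg2, textbook CREB-responsive genes whose values are given further on. The stretches lie at chr5:51567750-51567794 (minus strand), chr15:100227749-100227793 (plus strand), chr17:26508588-26508635 (minus strand) and chr1:134079294-134079341 (minus strand).
Ppargc1a: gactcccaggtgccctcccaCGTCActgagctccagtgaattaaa
Atf1: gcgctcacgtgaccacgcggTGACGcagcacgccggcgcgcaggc
Dusp1: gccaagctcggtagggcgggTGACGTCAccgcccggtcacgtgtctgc
Btg2: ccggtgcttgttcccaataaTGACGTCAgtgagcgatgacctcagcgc
The first matched base lies 49 bases before the annotated start in Ppargc1a, 90 in Atf1, 143 in Dusp1 and 166 in Btg2. A match of letters is a description and not a measured binding site.

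All values are FPKM, fragments scaled to transcript length and to the mapped fragments of the library, so levels of different genes can be set side by side per length. The FPKM of a library summed to between 453169 and 482851, and the size of the smallest values of single-transcript genes placed the depth at very roughly 23000000 to 37000000 fragments, too coarse for an interval on any value. The tumor label was checked against marker genes. The keratin gene Krt18 stood at 156 to 251 FPKM in all libraries and Wt1, a transcription factor of mesothelium and ovarian surface, at 373 to 565 FPKM. Krt7, another keratin gene, stood at 19.4 to 37.8 FPKM in the mouse libraries and at 0.0804 FPKM in culture. The epithelial adhesion gene Epcam did not exceed 0.624 FPKM, Cdh1 did not exceed 0.0511 FPKM and Pax8, a Mullerian lineage factor, was listed at 0 in 7 of 9 libraries. Leukocyte transcripts were lower in treated than in vehicle libraries. The summed level of 16 pan-leukocyte markers was 38.0 to 71.5 FPKM in vehicle, 20.3 to 28.2 FPKM in YKL-05-099 and 14.9 FPKM in cultured cells, and 10, 5 and 4 of the 16 reached a mean of 1 FPKM. The 14 macrophage markers summed to 147 to 325 FPKM, 21.1 to 83.0 FPKM and 10.2 FPKM in the same order. In culture C1qa and Adgre1 were listed at 0, and Cd68 alone stood at 10.04 FPKM. Of the 16 pan-leukocyte markers 6 were listed at 0 there. Cytip stood at 5.67 FPKM, Ptpn6 at 4.23 FPKM, above every mouse library, and Arhgdib at 1.98 FPKM. These sums may therefore hold transcripts of the tumor cells themselves, which was not tested. The 6 erythroid markers summed to 244 to 1487 FPKM in vehicle and 1.45 to 92.8 FPKM in treated libraries. The 8 B and plasma cell markers summed to 14.2 to 53.7 FPKM and 0.908 to 1.71 FPKM in the same groups. The 9 fibroblast markers summed to 609 to 654 FPKM in vehicle, 517 to 598 FPKM in treated and 310 FPKM in cultured cells. Of these, Dcn alone stood at 243 FPKM in culture. In such bulk samples, fewer cells of a type and less RNA per cell cannot be told apart.

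In vehicle cells Atf1 had the highest level of the 9 genes at 38.3 ± 3.14 FPKM (SD, n = 4, as for all means below), followed by Ep300, Crtc2, Crem, Crtc3, Crtc1, Creb1 and Crebbp, with Ppargc1a lowest. Neighbours in that order did not overlap between libraries except Crtc2 with Crem and Crtc1 with Creb1. In YKL-05-099 cells Crem moved to the top, above Atf1 in 4 of 4 libraries. The remaining order there was Atf1, Ep300, Crtc2, Crtc3, Crtc1, Crebbp, Creb1 and Ppargc1a, and the ranges of Crtc3 with Crtc1, Crtc1 with Crebbp and Crebbp with Creb1 overlapped. In the cultured library Atf1, Ep300 and Crtc2 were the 3 highest, and Crem took the sixth place.

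**Figure D1:**
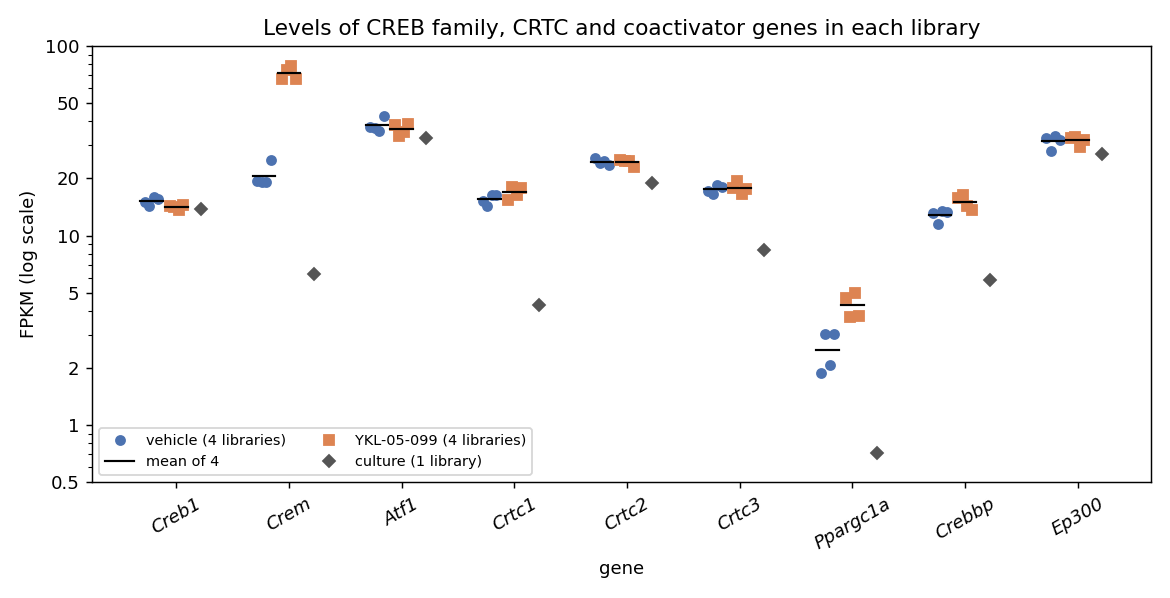
FPKM on a log axis for each of the 9 genes in every library, with vehicle libraries as circles, YKL-05-099 libraries as squares, the cultured library as a diamond and a line at the mean of 4. The Crem squares sit between 66.6 and 78.3 FPKM, above all vehicle circles, and the diamonds of Crem, Crtc1, Crtc3, Crebbp and Ppargc1a lie well below the mouse libraries.

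The first comparison asked whether SIK inhibition in the mouse went with changed transcript levels of the factors and coactivators downstream of the kinases. Of the 9 genes, 3 were higher in YKL-05-099 cells (Crem, Ppargc1a and Crebbp), none was lower, and 6 did not pass the threshold. A gene was called at a Benjamini-Hochberg adjusted p under 0.05 in limma, fitted to log2(FPKM + 1) of the 11788 genes that reached 1 FPKM in 4 or more of the 8 mouse libraries. Over all genes tested 43.2% were called, 28.0% higher and 15.1% lower, so 3 of 9 is no larger a share than in the background. The groups did not overlap for the same 3 members, where 40.0% of all genes tested had groups without overlap. Crem had the largest rise of the 9 and ranked 18 of 11788 from the highest log2 difference down.

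Crem, on chromosome 18 from 3266048 to 3337748 (GRCm38, minus strand, 39 annotated transcripts), was the member with the largest difference. Its level was 19.4, 19.0, 19.1 and 24.9 FPKM in vehicle libraries 1 to 4, and 66.9, 74.8, 78.3 and 66.6 FPKM in YKL-05-099 libraries 1 to 4. Every treated library was above every vehicle library, and vehicle library 4 stood apart from the other vehicle libraries on the high side. The mean rose from 20.6 ± 2.87 to 71.6 ± 5.82 FPKM, a ratio of 3.48, with a log2 difference of 1.75 (SE 0.0902, limma adjusted p = 2.11e-06). Without vehicle library 4 the log2 difference was 1.85. With the mean log2(FPKM + 1) of the 16 leukocyte markers added as a covariate, which itself did not overlap between the groups, it was 1.72 (SE 0.194, limma adjusted p = 0.00308). The values are per gene, so transcripts for activators and for the ICER repressor cannot be told apart.

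Creb1, the founding member of the family (chromosome 1, 64532645 to 64604548, plus strand), did not follow Crem. Its level was 14.95, 14.3, 16.0 and 15.6 FPKM in vehicle and 14.4, 14.1, 13.7 and 14.4 FPKM in YKL-05-099 libraries. The groups overlapped, with 3 of 4 vehicle libraries above all treated ones. The log2 difference was -0.10 (95% interval -0.21 to 0.01, limma adjusted p = 0.141) on the deposited scaling. It was -0.15 after median-of-ratios scaling and -0.17 after quantile normalization, and there it passed the threshold as lower (limma adjusted p = 0.0266 and 0.0154). Over all genes the median difference was 0.05 on the deposited scaling and 0 under median-of-ratios scaling.

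Atf1 (chromosome 15, 100227819 to 100261244, plus strand), which forms dimers with CREB1 and CREM, was the most abundant of the family in vehicle cells. Its vehicle libraries stood at 37.5, 37.1, 35.7 and 42.8 FPKM and its treated libraries at 38.2, 33.3, 35.1 and 38.8 FPKM. The ranges overlapped broadly, with a log2 difference of -0.07 (95% interval -0.22 to 0.08, limma adjusted p = 0.427). As for Crem, vehicle library 4 was the highest of its group.

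The makeup of the family transcript pool is described here as shares, without a test. Crem made up 27.0%, 27.1%, 27.0% and 29.9% of the summed FPKM of Creb1, Crem and Atf1 in vehicle libraries. In treated libraries it made up 56.0%, 61.2%, 61.6% and 55.6%. Atf1 went from 51.7% ± 0.979 to 29.8% ± 2.74 of the sum and Creb1 from 20.6% ± 1.61 to 11.6% ± 0.600, while the sum itself went from 74.1 ± 6.19 to 122 ± 3.50 FPKM. The ratio of Crem to Creb1 was 1.36 ± 0.172 in vehicle and 5.07 ± 0.534 in YKL-05-099 cells. In culture Crem held 11.9% of the sum and the ratio was 0.453, so Creb1 exceeded Crem there and in no mouse library.

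**Figure D2:**
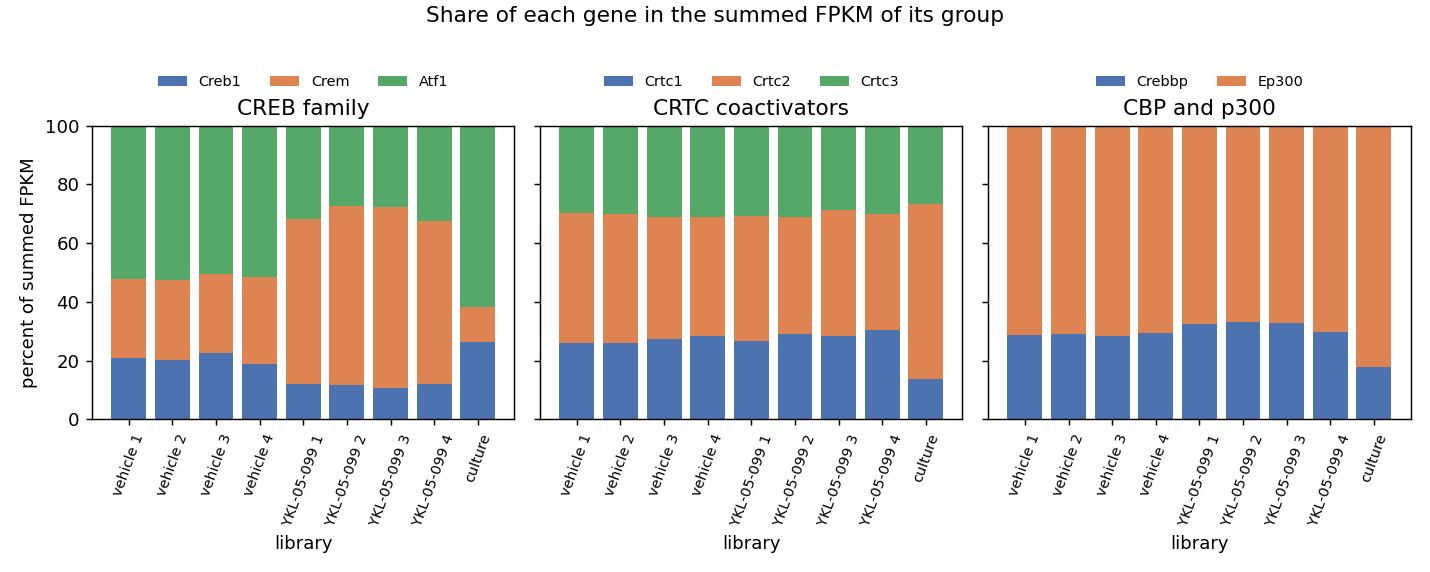
Stacked bars give the percent of summed FPKM that each gene contributed within the CREB family, the CRTC coactivators and the CBP and p300 pair, for each of the 9 libraries. Crem holds 27.0% to 29.9% of the family in vehicle, 55.6% to 61.6% in YKL-05-099 and 11.9% in culture, while CRTC shares of both mouse groups lie close together.

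The 3 CRTC genes, which encode direct substrates of SIKs, did not pass the test and overlapped between the mouse groups. Crtc2 (chromosome 3, 90254163 to 90264125, plus strand), the coactivator best known from liver gluconeogenesis, stood at 25.7, 24.0, 24.8 and 23.6 FPKM in vehicle and at 24.9, 24.8, 24.7 and 23.0 FPKM in treated libraries. The groups lay on top of each other, and the log2 difference was -0.01 (95% interval -0.11 to 0.09, limma adjusted p = 0.862). Crtc3 (chromosome 7, 80586627 to 80688877, minus strand) stood at 17.2, 16.6, 18.5 and 18.1 FPKM in vehicle and at 17.9, 19.3, 16.5 and 17.6 FPKM in treated libraries. The treated range enclosed the vehicle range, with a log2 difference of 0.02 (95% interval -0.11 to 0.14, limma adjusted p = 0.827).

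Crtc1 (chromosome 8, 70382355 to 70439579, minus strand), known chiefly from neurons, stood at 15.1, 14.4, 16.3 and 16.4 FPKM in vehicle and at 15.5, 18.0, 16.3 and 17.8 FPKM in treated libraries. Only libraries 2 and 4 of the treated group were above all vehicle libraries, and the log2 difference was 0.11 (95% interval -0.03 to 0.25, limma adjusted p = 0.189). The intervals of the 3 CRTC genes leave differences of up to 0.25 log2 units possible, so a small change of these transcripts was not detectable here. Of their summed FPKM, 57.7 ± 1.91 in vehicle and 59.1 ± 2.08 in treated cells, Crtc2 held 42.6% ± 1.71 and 41.3% ± 1.86, Crtc3 30.5% ± 0.686 and 30.2% ± 1.04, and Crtc1 26.9% ± 1.06 and 28.6% ± 1.64.

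**Figure D3:**
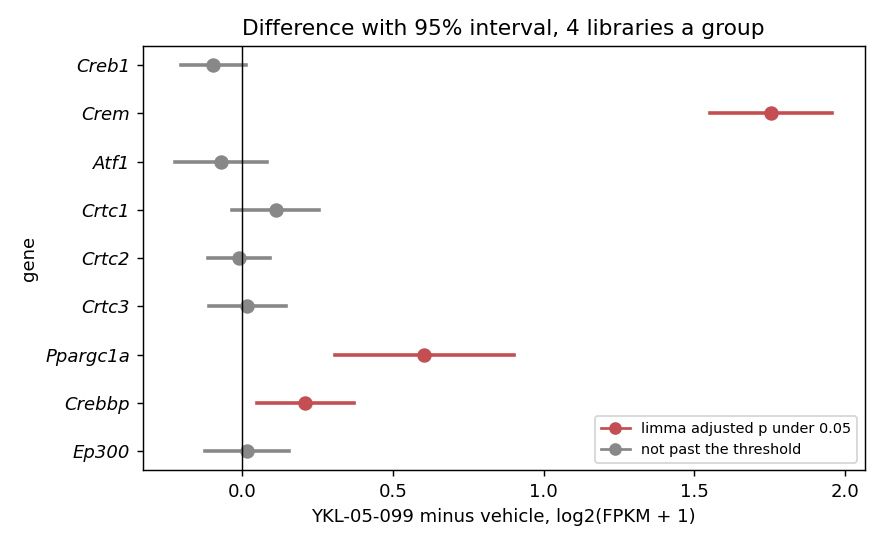
Points give the difference in log2(FPKM + 1) between YKL-05-099 and vehicle cells for each gene, with the 95% interval from limma as a bar (4 libraries a group), in red where the adjusted p was under 0.05. Crem lies at 1.75 and Ppargc1a at 0.60, Crebbp at 0.21, and the bars of the other 6 genes cross 0.

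Ppargc1a (chromosome 5, 51454250 to 51567726, minus strand) was the least abundant member in every group and rose on treatment. Its level was 1.89, 3.01, 2.08 and 3.01 FPKM in vehicle and 4.69, 3.72, 5.00 and 3.75 FPKM in YKL-05-099 libraries. The groups did not overlap, although the spread was wide for so low a level. The mean went from 2.50 ± 0.597 to 4.29 ± 0.653 FPKM, a log2 difference of 0.60 (SE 0.133, limma adjusted p = 0.00519), which the added 1 in log2(FPKM + 1) makes smaller: with 0.1 in its place it was 0.77. With the pan-leukocyte covariate the log2 difference was 0.71 (SE 0.283, limma adjusted p = 0.201), a larger value that no longer passed.

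Among the acetyltransferases, Crebbp (chromosome 16, 4081328 to 4213997, minus strand) was slightly higher after treatment and Ep300 was not called. Crebbp stood at 13.2, 11.4, 13.4 and 13.3 FPKM in vehicle and at 15.7, 16.4, 14.4 and 13.6 FPKM in treated libraries. The groups did not overlap, but the lowest treated library exceeded the highest vehicle library by little. The log2 difference was 0.21 (SE 0.0717, limma adjusted p = 0.0387). This call ended in 11 of 19 alternatives. With the leukocyte covariate the difference was 0.13 (SE 0.151, limma adjusted p = 0.684), the smallest value of the 19. The call also ended under median-of-ratios scaling (0.15, limma adjusted p = 0.107), with no filter on low values (limma adjusted p = 0.0825) and on leaving out any 1 of vehicle libraries 1 to 3 or of treated libraries 1 to 3 (limma adjusted p from 0.0508 to 0.107).

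Ep300 (chromosome 15, 81585351 to 81652077, plus strand) stood at 32.6, 28.1, 33.5 and 31.8 FPKM in vehicle and at 32.8, 32.9, 29.4 and 32.0 FPKM in treated libraries. The ranges overlapped, with a log2 difference of 0.02 (95% interval -0.12 to 0.15, limma adjusted p = 0.858). It exceeded Crebbp in all 9 libraries, by a ratio of 2.45 ± 0.0424 in vehicle, 2.13 ± 0.160 in treated and 4.61 in cultured cells. Vehicle library 2 was the lowest vehicle library for both Crebbp and Ep300, and also for Creb1, Crem, Crtc1 and Crtc3. That library also had the highest pan-leukocyte covariate, 1.97 against 1.41 to 1.74 in the other vehicle libraries. A link between that covariate and these levels was not tested. In the fit with that covariate Ep300 stood at -0.18 (SE 0.112, limma adjusted p = 0.421).

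The second comparison set the cultured cells beside the vehicle cells, with 1 cultured library and therefore no test. In culture 8 of the 9 genes were below every mouse library, Creb1 being the exception, where 36.2% of 12296 genes compared were. The comparison shares its vehicle libraries with the first. A gene was counted as apart when it lay outside the range of the 8 mouse libraries and at least 1 log2 unit from the vehicle mean. By that count Crem, Crtc1, Ppargc1a and Crebbp were lower in culture, 4 of 9, and none was higher. Of all genes compared 20.2% were apart, 10.6% lower and 9.62% higher in culture. The count rests on values close to the limit. Ppargc1a at -1.01 and Crebbp at -1.02 lay just past it and Crtc3 at -0.98 just short of it, and without vehicle library 4 only 2 genes were counted, Crem and Crtc1.

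The 3 CRTC genes differed from each other in how far below vehicle they lay in culture. Crtc1 stood at 4.30 FPKM, which is 0.276 of its vehicle mean and the largest difference of any member (-1.64 log2 units). Crtc3 stood at 8.41 FPKM, 0.477 of its vehicle mean, and Crtc2 at 18.9 FPKM, 0.769 of its vehicle mean. Crtc2 therefore made up 59.8% of the summed CRTC level in culture and Crtc1 13.6%.

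The factors and acetyltransferases also differed among themselves in this comparison. Crem stood at 6.29 FPKM there, -1.56 log2 units from the vehicle mean, so the treated mice differed from culture by a ratio of 11.4. Creb1 at 13.9 FPKM (-0.12 log2 units) was inside the range of the mouse libraries, and Atf1 at 32.8 FPKM (-0.21 log2 units) only just below it. Crebbp stood at 5.83 FPKM, 0.454 of its vehicle mean, against 26.9 FPKM and 0.853 for Ep300. Ppargc1a stood at 0.713 FPKM in culture. Growth in the mouse, sorting and the presence of other cells all differ between these libraries and cannot be told apart.

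**Figure D4:**
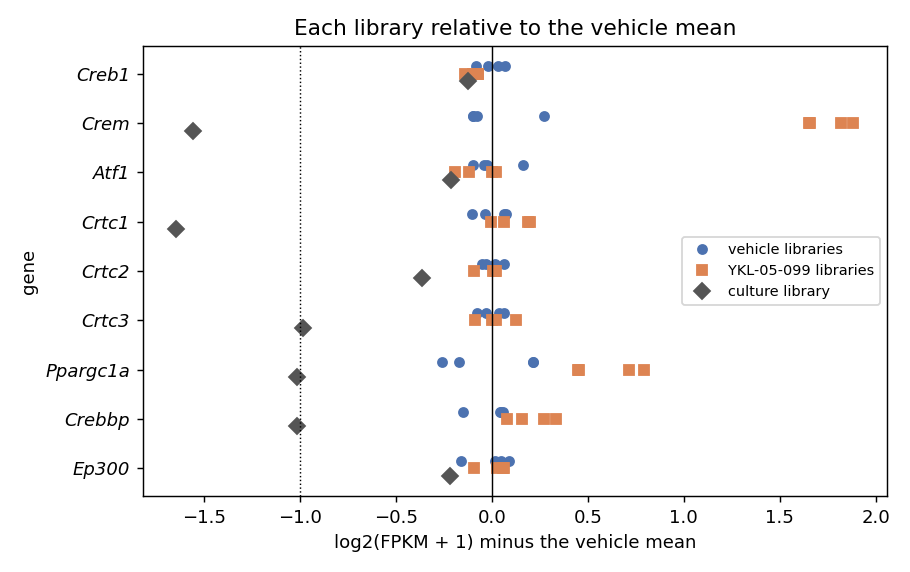
Each library's log2(FPKM + 1) minus the vehicle mean of that gene, with vehicle libraries as circles, YKL-05-099 libraries as squares, the cultured library as a diamond and a dotted line 1 unit below the mean. The diamonds of Crem (-1.56) and Crtc1 (-1.64) lie far left, those of Ppargc1a, Crebbp and Crtc3 near the dotted line, and those of Creb1, Atf1 and Ep300 close to the vehicle circles.

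The genes whose profiles were most like those of 2 members were found by the root mean square difference of log2(FPKM + 1) over the 9 libraries, each profile centred on its mean. For Crem, the member with the largest treatment difference, these were Rab11fip1 (0.137 log2 units), Itga2b (0.147), Hs3st1 (0.154) and Gpr146 (0.158), where the median over all genes tested was 1.13. Rab11fip1 went from 23.2 ± 2.59 to 72.6 ± 3.33 FPKM with treatment and stood at 7.62 FPKM in culture, where Crem stood at 6.29 FPKM. For Crtc1, the member with the largest difference in culture, they were Vwa7 (0.0485), Hist3h2a (0.0631), Tcte2 (0.0653) and Prkce (0.0707), with a median of 0.563 over all genes tested. These distances are descriptions over libraries that fall into 3 groups.

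Genes that the CREB family is known to drive were called in both directions on treatment. Of 20 tested genes in a list of 30 CREB and CRTC targets, 9 were higher and 4 lower, with a median log2 difference of 0.31, where 28.0% and 15.1% of all genes tested were higher and lower with a median of 0.05. Among the 9 was Inhba, at 0.529 ± 0.0609 FPKM in vehicle and 1.82 ± 0.228 FPKM in treated cells. Inhba passed the filter only through the treated libraries, so the filter favoured its count as higher. The list was written with earlier results of these data known, so it is no independent evidence of direction. The nuclear receptor gene Nr4a2 rose by 2.41 log2 units, the cAMP phosphodiesterase gene Pde4d by 1.92, Nr4a3 by 1.73 and the G protein regulator gene Rgs2 by 1.5, beside 1.75 for Crem. Btg2 (-0.74), Ier2 (-0.73), Id1 (-0.63) and Nedd9 (-0.54) fell. The falls of Btg2, Ier2 and Id1 did not pass with no filter on low values, and that of Ier2 was lost on leaving out any 1 vehicle library or treated library 1. Dusp1, whose promoter window holds the full element as that of Btg2 does, was 610 ± 67.8 FPKM in vehicle and 564 ± 146 FPKM in treated cells (limma adjusted p = 0.523). The full element lay in 5 of 34 windows of listed targets (14.71%, beside 1.79% of all windows). Only Dusp1 and Btg2 among the genes holding it were tested, too few to describe such targets as a class. With the pan-leukocyte covariate 6 of the 20 tested targets were higher and none lower, in a fit that called 3.8% of all genes, 2.23% higher. In culture 14 of 22 compared targets were apart on the low side and 3 on the high side, beside 10.6% and 9.62% of all genes compared. Among the 20 tested targets Fos (-8.04 log2 units), Egr1 (-5.495), Dusp1 (-4.94) and Fosb (-4.815) lay furthest below the vehicle mean there. Growth in the mouse and sorting cannot be told apart here either.

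Genes that act on CREB and CRTC proteins were called about as often as genes in general on the deposited scaling. Of 33 tested kinase, regulator and phosphatase genes 10 were higher and 5 lower there (median -0.04), beside 28.0% and 15.1% of all genes tested. After median-of-ratios scaling 8 of the 33 were higher and 12 lower, beside 2502 and 2468 of 11788 genes. Prkar2b, a regulatory subunit of protein kinase A, rose by 1.40 log2 units, Sik1 (also counted among the targets) by 1.27, the ribosomal S6 kinase gene Rps6ka2 by 0.87 and Stk11, which encodes the SIK-activating kinase LKB1, by 0.45. The calcineurin genes Ppp3cc (-0.26) and Ppp3r1 (-0.24), the protein kinase A catalytic subunit gene Prkacb (-0.22) and Rps6ka3 (-0.20) fell by small amounts. The falls of Ppp3cc and Rps6ka3 kept their call in 7 and 9 of 19 alternatives. That of Ppp3cc was lost on leaving out any 1 library but vehicle library 4, and that of Rps6ka3 on leaving out any 1 of vehicle libraries 1 to 3 or treated libraries 2 and 3. The lower count of the list was then as small as 3. Sik3 rose by 0.31 and Sik2 was not called (0.06, limma adjusted p = 0.545). Of the 7 genes for 14-3-3 proteins, which bind phosphorylated CRTCs, Ywhaz rose by 0.17 and Ywhag fell by 0.12. The rise of Ywhaz did not pass after median-of-ratios scaling, and the fall of Ywhag was lost in 11 of 19 alternatives, among them leaving out any 1 library but vehicle library 1. With the pan-leukocyte covariate 1 of the 33 and 0 of the 7 passed, where 3.8% of all genes tested were called.

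Among relatives and partners of the members no called difference reached that of Crem. For the counts that follow, 28.0% of all genes tested were higher and 15.1% lower on the deposited scaling. Of 14 tested CREB-related bZIP genes 2 were higher, Crebrf (0.47) and the stress factor gene Atf4 (0.32), and 4 were lower, Creb3l1 (-0.47), Creb3l2 (-0.33), Creb3 (-0.28) and Atf7 (-0.16). The call of Atf7 was lost in 11 of 19 alternatives, among them leaving out any 1 of vehicle libraries 1 to 3 or treated libraries 1, 3 and 4. Of 18 tested acetyltransferase genes and partners of CBP and p300, 4 were higher and 3 lower (median 0.06). Hat1 (0.30), Kat6b (0.28), Kat8 (0.24) and the steroid receptor coactivator gene Ncoa2 (0.16) rose, and Fhl2 (-0.38), the arginine methyltransferase gene Carm1 (-0.23) and Kat2b (-0.12) fell. The falls of Fhl2 and Kat2b were both lost on leaving out any 1 of vehicle libraries 1 to 3 or treated libraries 1, 2 and 4, and Fhl2 stood at 0.17 with the covariate. The rise of Ncoa2 did not pass after median-of-ratios scaling. Of 17 tested PGC-1 relatives and partners 6 were higher and 2 lower. Ppara (0.47), Tfb1m (0.37), the mitochondrial deacetylase gene Sirt3 (0.37) and Sirt1 (0.36) had the largest rises, and Mef2a (-0.59) and the PGC-1 relative Pprc1 (-0.34) fell. Ppara, at 0.737 ± 0.0729 FPKM in vehicle and 1.41 ± 0.224 FPKM in treated cells, passed the filter only through the treated libraries. The filter therefore favoured its count as higher. It was tested in 14 of 19 alternatives, and in none that left out a treated library. The fall of Pprc1 was lost in 11 of 19 alternatives, among them leaving out any 1 library but vehicle library 2. After median-of-ratios scaling 6 of the 17 were higher and 4 lower, beside 2502 and 2468 of 11788 genes. With the pan-leukocyte covariate none of these 3 lists had a called member, beside 448 of 11788 genes called in that fit.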

How the data were processed

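The deposited table holds FPKM that the authors computed for each gene and library, each with a status, per the file headers. Its build was GRCm38 and demultiplexing used bcl2fastq 2.19, per the submitters' processing notes. The aligner and quantification program are given in none of the sources used here. The library kit marked strand, per the labels' protocols. Of 48302 rows, 65 repeats of a gene identifier (the longest locus was kept) and 7 genes with a failed estimate were left out. Starts in the table count from 0 and are printed from 1. Annotated genes overlapping a member did not exceed 0.360 FPKM. Groups and replicate numbers come from sample titles.

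FPKM are not counts. Treated and vehicle libraries were compared on log2(FPKM + 1) by limma 3.58.1 (R 4.3.3), with a mean-variance trend, no pairing, and Benjamini-Hochberg adjustment over 11788 genes. A difference on this scale understates the change of low genes. Other steps used Python 3.11.15. The fit was tested on simulated data. The members, lists and alternatives were chosen with earlier results of these data known. Genes named are the members, Sik1 to Sik3, per list up to 4 called genes with the largest difference in each direction, and the 4 nearest profiles for 2 members. Dusp1 and Btg2 were chosen for their promoter windows, and Fos, Egr1 and Fosb for their large differences in culture. Inhba was named because it passed the filter only through the treated libraries. Krt18, Wt1 and the other marker genes named come from lists of cell markers written from textbook knowledge.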

Additional observations from a re-analysis of the deposited data

Results flagged for a closer look

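Among 18 sets of 4 libraries (9 genes in both mouse groups), 3 held a library far from the other 3 by Dixon's test at its 95% critical value, which sets the gap to the nearest library against the whole range. Chance alone marks about 1 in 20 sets. Crem in vehicle library 4 stood at 24.9 FPKM, with the nearest library at 19.39 FPKM and a gap ratio of 0.942, and treated libraries were all above it. Crtc2 in YKL-05-099 library 4 stood at 22.99 FPKM, with the nearest at 24.69 FPKM and a gap ratio of 0.881. Crebbp in vehicle library 2 stood at 11.43 FPKM, with the nearest at 13.22 FPKM and a gap ratio of 0.910. Without that library the Crebbp difference was 0.16 log2 units (limma adjusted p = 0.0987) and was no longer called. The cause of these gaps was not tested.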

How the results depend on the processing

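The rise of Crem kept its direction and its call in all 19 alternatives, at 1.70 to 1.85 log2 units, and that of Ppargc1a kept its direction in 18, at 0.52 to 0.77. Ppargc1a lost its call with the pan-leukocyte covariate only and was not tested at a mean FPKM of at least 5. With the covariate 448 genes (263 higher, 185 lower) were called in place of 5089 (3304 and 1785), 1 member in place of 3, and 6 list genes, with a median standard error of 0.138 in place of 0.0697. Covariate values spanned 1.41 to 1.97 among vehicle and 0.704 to 1.09 among treated libraries. The cultured library stood at 0.6225, so the covariate may not measure leukocytes alone. The median-of-ratios and quantile alternatives moved the share of higher calls from 64.9% to 50.3% and 50.9%. Differences near 0 changed sign without a call. Crtc3 and Ep300 were -0.0391 and -0.0424 under median-of-ratios scaling and -0.0372 and -0.0204 after quantile normalization. With the covariate Crtc1, Crtc2, Crtc3 and Ep300 were -0.0276, 0.0486, -0.0840 and -0.176. Crtc2 was 0.00302 under TPM scaling. Leaving out 1 library, Crtc2 ranged from -0.0284 to 0.0155, Crtc3 from -0.0200 to 0.0516 and Ep300 from -0.0373 to 0.0511, all genes called from 4182 to 5498, members called from 2 to 3, list genes called from 41 to 50 and members apart in culture from 2 to 4 (2 without vehicle replicate 4). The replicate numbers showed no clear pairing of the samples. Correlations of same-numbered deviations were -0.0184, 0.133, -0.0467 and 0.172, and those of differently numbered ones lay between -0.266 and 0.158. With the replicate number as a block 4830 genes were called, Crem and Ppargc1a kept their calls and Crebbp did not (limma adjusted p = 0.0762). On leaving out 1 library, the mean Crem share ranged from 27.01% to 27.98% in vehicle and 57.58% to 59.59% in treated cells. That of Crtc2 ranged from 41.98% to 43.21% and from 40.68% to 41.89%, and that of Ep300 from 70.92% to 71.21% and from 67.21% to 68.37%. FPKM without counts gave no interval for a single library, so precision rests on 4 libraries a group.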
